A study of Rattus norvegicus with 12 samples.

Results

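The pore-forming alpha-1 subunits of voltage-gated calcium channels were examined in the basolateral amygdala (BLA), a mostly glutamatergic forebrain region that links sensory cues to emotional value. The genes were Cacna1a, Cacna1b, Cacna1c, Cacna1d, Cacna1e, Cacna1g, Cacna1h and Cacna1i. All 8 were on the array. They were chosen by name: every probe set whose platform annotation gave exactly 1 symbol, equal to one of these names, was kept, which made 18 probe sets of the 20826 with 1 symbol, and 8 of 14217 genes. No filter on low values was applied, so all 18 were tested.

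The animals were male Long-Evans rats of 2 to 3 months and 225 to 250 g at entry, housed singly with free chow and water. In the sucrose group rats had access to 30% sucrose, at most 4 mL a time, from an additional bottle 2 times a day for 14 days, and controls received water on the same schedule. The BLA was dissected on the morning of day 15. Each array carried RNA from both sides of 2 pooled rats of a group, 12 rats and 6 arrays per group, and the pool rather than the rat is the unit of replication. The rats carried no transgene or other alteration that the labels name.

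A voltage-gated calcium channel opens on depolarisation and turns electrical activity into calcium entry. Its alpha-1 subunit alone forms the voltage sensor and the pore, and thereby sets the current type. L-type channels (Cacna1c, Cacna1d) sit mainly on somata and dendrites and signal to the nucleus. P/Q-, N- and R-type channels (Cacna1a, Cacna1b, Cacna1e) trigger transmitter release at nerve terminals, the R-type acting in dendrites as well. T-type channels (Cacna1g, Cacna1h, Cacna1i) open near the resting potential and support burst firing. L-type channels in the amygdala are known for a role in fear learning.

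Every value is the log2 of a deposited ratio, in which an array's signal for a probe set was divided by the average of the 6 control arrays. Differences are sucrose minus control on this log2 scale, given with the standard error (SE) or 95% interval from limma, a linear model that shares variance information across probe sets, over 6 pools in each group. Such ratios keep no level, so the subunits cannot be ranked by abundance, a probe set near background cannot be recognised, and the tissue cannot be checked by the level of its markers. In pooled bulk tissue, fewer cells of a type and less RNA per cell cannot be told apart. The number of arrays limits the precision.

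No alpha-1 subunit differed between sucrose and control rats by the test. Of the 18 probe sets 0 had an adjusted p under 0.05 in limma, as did 0% of all 31042 probe sets tested, and the adjusted p of the 18 ran from 0.521 to 0.991. At an unadjusted p under 0.05 there was 1 of 18, a lower probe set of Cacna1h, against 7.57% of all probe sets, 3.07% lower and 4.5% higher. Of the 18 differences 13 were below 0 and 5 above, against 54.3% below 0 among all probe sets. The median difference was -0.028, and -0.0054 over all probe sets. The groups overlapped for all 18, while 0.425% of all probe sets had groups that did not overlap. None of the 18 was among the 145 probe sets of the authors' deposited table.

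**Figure D1:**
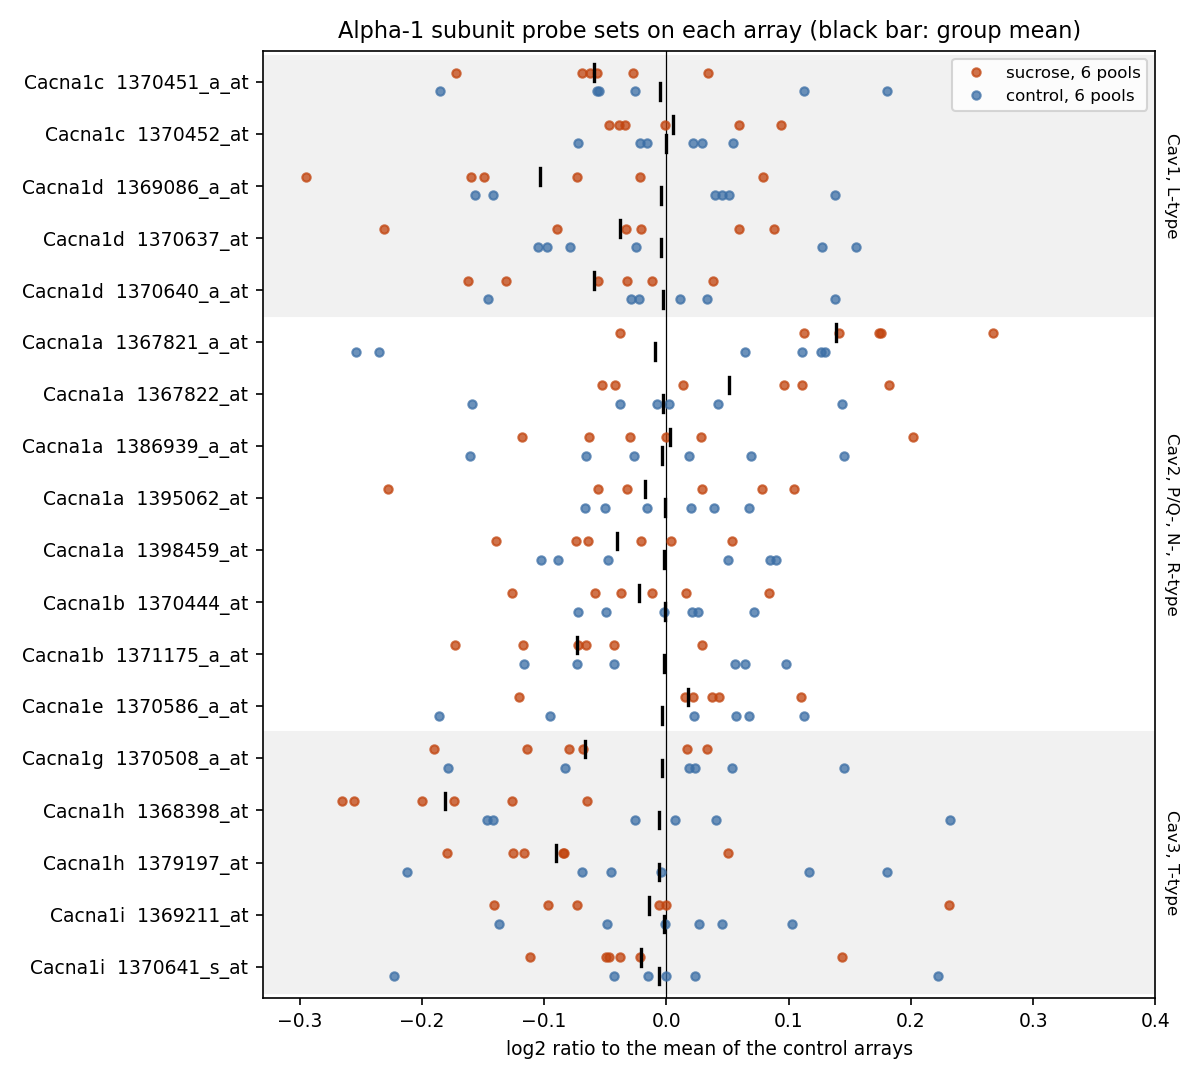
Log2 ratio relative to the control mean (horizontal axis) for each of the 18 alpha-1 probe sets (rows, grouped by channel type); each point is an array of a pool of 2 rats, orange for 6 sucrose and blue for 6 control arrays, and black bars are group means. Points of both colours overlap in every row; in the row of Cacna1h 1368398_at the sucrose arrays lie from -0.27 to -0.065 and the controls from -0.15 to 0.23.

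The intervals give a measure of how large a change each probe set leaves room for. The lowest mean ratio among the higher probe sets of the authors' deposited table was 1.198, or 0.261 on the log2 scale. It was used in both directions, without regard to the lower ratios of that table. Because that table was selected on these arrays, the size is only a yardstick. The 95% interval reached that size in either direction for 2 of the 18 alpha-1 probe sets, upward for Cacna1a 1367821_a_at and downward for Cacna1h 1368398_at. For the other 16 it stayed inside. A narrow interval does not show that a transcript was detected, since a probe set without specific signal can also be steady. Cacna1s and Cacna1f, the alpha-1 subunit genes of skeletal muscle and retina, varied within groups by an SD of 0.12 and 0.15. The 18 probe sets varied by 0.052 to 0.148, with a median of 0.102 against 0.0854 for all probe sets.

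**Figure D2:**
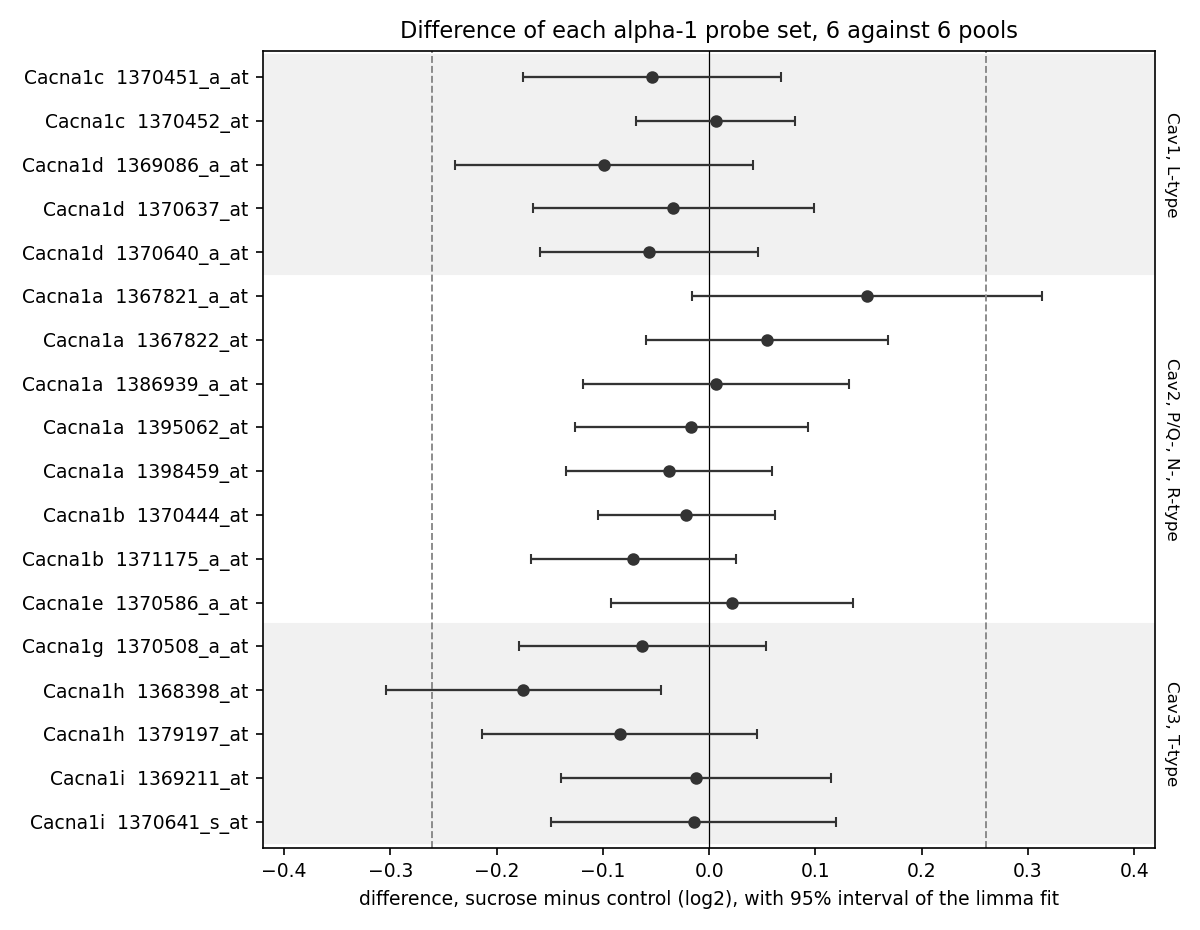
Difference of each alpha-1 probe set, sucrose minus control on the log2 scale (points), with the 95% interval of the limma fit (bars), 6 against 6 pools; dashed lines mark 0.261 on either side of 0, the lowest ratio among the higher probe sets of the authors' deposited table. The bar of Cacna1h 1368398_at leaves out 0, before any adjustment, and runs from -0.30 to -0.046, while that of Cacna1a 1367821_a_at runs from -0.016 to 0.31.

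Among the L-type genes, Cacna1c encodes the main neuronal and cardiac L-type pore. Its probe set 1370451_a_at ran from -0.17 to 0.034 in sucrose arrays, with a median of -0.060, and from -0.18 to 0.18 in controls, with a median of -0.041. All sucrose values lay inside the control range, and the difference was -0.054 ± 0.056 (SE), with an adjusted p of 0.875. It moved with single arrays, from -0.017 without control array 3 to -0.090 without control array 1, with -0.031 without sucrose array 1 and -0.030 without control array 5. It was -0.017 adjusted for the spike-in level, -0.014 with array weights and -0.0079 without sucrose array 1 and control array 5. The other, 1370452_at, was among the steadiest of the family. It ran from -0.047 to 0.094 in sucrose arrays (median -0.017) and from -0.072 to 0.055 in controls (median 0.0029). Its difference was 0.0061 ± 0.035, and its interval of -0.068 to 0.081 was the narrowest of the 18.

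Cacna1d encodes the L-type pore that opens at more negative voltages and supports pacemaking. All 3 of its probe sets were below 0 in difference, by -0.099 ± 0.065 for 1369086_a_at, -0.034 ± 0.061 for 1370637_at and -0.057 ± 0.048 for 1370640_a_at, and their adjusted p were 0.784, 0.938 and 0.836. On 1369086_a_at sucrose arrays ran from -0.29 to 0.079 (median -0.11) and controls from -0.16 to 0.14 (median 0.043). Here 5 of 6 sucrose arrays lay below the control median, and the lowest of all was sucrose array 1. Without that array the difference was -0.061, without control array 2 it was -0.13, and without sucrose array 2 it was -0.14 with an unadjusted p under 0.05. On 1370637_at the order of the medians was the other way, with -0.027 in sucrose and -0.052 in control arrays, although the mean was lower after sucrose.

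Among the genes of presynaptic channels, Cacna1a, the P/Q-type pore and the main calcium source for release at many central synapses, had 5 probe sets that did not move alike. The one with the largest difference, 1367821_a_at, ran from -0.038 to 0.27 in sucrose arrays (median 0.16) and from -0.25 to 0.13 in controls (median 0.088). Of the 6 sucrose arrays 4 lay above the highest control, and control arrays 3 and 5 lay far below the rest of their group, at -0.25 and -0.24. The difference was 0.15 ± 0.077, with group means of 0.14 ± 0.10 and -0.0095 ± 0.18 (SD) and an adjusted p of 0.708. The exact two-sided permutation test gave p = 0.132.

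The arrays at the ends of this probe set's range were also those at the ends of the level of the manufacturer's spike-in probe sets, a measure of hybridisation. The spike-in level was -0.083 in control array 3 and -0.12 in control array 5, the lowest of the 12 arrays, and 0.18 in sucrose array 1, the highest. The values of 1367821_a_at in these arrays were -0.25, -0.24 and 0.27, likewise the extremes. Sucrose array 6 and control array 6, with spike-in levels of -0.082 and -0.069, had -0.038 and 0.13. Adjusted for the spike-in level, the difference was 0.086 (adjusted p = 0.933). With sucrose array 1 and control array 5 left out, an alternative chosen after seeing the data, it was 0.077. It was 0.092 with array weights, and without control array 3 or control array 5 it was 0.099 or 0.10. It rose to 0.18 without sucrose array 6, without control array 4 and without control array 6, and in these 3 fits its unadjusted p was under 0.05. The part of hybridisation in the difference was not tested.

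The other Cacna1a probe sets lay closer to 0. The difference was 0.054 ± 0.053 for 1367822_at, 0.0064 ± 0.058 for 1386939_a_at, -0.017 ± 0.051 for 1395062_at and -0.038 ± 0.045 for 1398459_at. Their adjusted p ran from 0.864 to 0.991. Sucrose array 1 was the highest of the 12, at 0.20, on 1386939_a_at and the lowest, at -0.23, on 1395062_at, so that array was at opposite ends for probe sets of the same gene.

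Cacna1b encodes the N-type pore, the target of the cone snail toxin omega-conotoxin GVIA. Its probe set 1371175_a_at ran from -0.17 to 0.029 in sucrose arrays (median -0.069) and from -0.12 to 0.098 in controls (median 0.0068). Of the sucrose arrays 5 of 6 lay below the control median. The difference was -0.071 ± 0.045, with an adjusted p of 0.774. On 1370444_at it was -0.021 ± 0.039, with sucrose arrays from -0.13 to 0.084 (median -0.024) and controls from -0.072 to 0.072 (median 0.0097).

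Cacna1e, the R-type pore, had a single probe set, 1370586_a_at. It ran from -0.12 to 0.11 in sucrose arrays (median 0.030) and from -0.19 to 0.11 in controls (median 0.040). The sucrose range lay within the control range, and the difference was 0.021 ± 0.053, with an adjusted p of 0.960 and an interval of -0.092 to 0.14.

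All 5 probe sets of T-type genes had differences below 0, from -0.18 to -0.012, against 54.3% of all probe sets, and 0 passed the test. Of these, Cacna1i 1369211_at and 1370641_s_at turned sign under 7 and 3 of 22 alternatives. The largest difference of the family was that of Cacna1h 1368398_at. Sucrose arrays ran from -0.27 to -0.065 (median -0.19) and controls from -0.15 to 0.23 (median -0.0093). Of the 6 sucrose arrays 6 lay below the control median and 4 below the lowest control, while control array 6 was the highest, at 0.23. Group means were -0.18 ± 0.077 and -0.0057 ± 0.14 (SD). The difference was -0.18 ± 0.060, a ratio of 0.886, with an unadjusted p of 0.0117. The exact two-sided permutation p was 0.0173. Limma's adjusted p was 0.521, so the difference failed the correction. Its value stayed between -0.20 and -0.13 over the alternatives on the log2 scale, the smallest size being without control array 6, and its adjusted p was never below 0.487.

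The identity of this probe set is not settled by the annotation. The platform table gives it the symbol and gene identifier of Cacna1h, but the transcript accession in the same row is listed under Cacna1g in the RefSeq gene table of assembly GRCr8. Its values over the 12 arrays followed neither gene's other probe set, with a Pearson r of 0.025 against Cacna1h 1379197_at and of 0.10 against Cacna1g 1370508_a_at (permutation p = 0.938 and 0.755, n = 12 arrays). Among pairs of probe sets of the same gene 9 had r above 0 and 8 below. These correlations therefore cannot tell which gene this probe set measures. Its difference is reported for the probe set and not as a change of either gene. That table lists the accession of 2 of the 18 probe sets. The other is Cacna1i 1369211_at, whose accession is under its annotated gene, and the remaining 16 could not be compared in this way.

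Cacna1h 1379197_at ran from -0.18 to 0.050 in sucrose arrays (median -0.10) and from -0.21 to 0.18 in controls (median -0.025). The difference was -0.084 ± 0.060, with an adjusted p of 0.808, and the sucrose arrays lay within the control range. It was -0.047 without control array 3, and -0.13 without control array 4, where its unadjusted p was under 0.05. Cacna1g, whose T-type channel drives burst firing of thalamic relay neurons, differed by -0.063 ± 0.054 (adjusted p = 0.841), with sucrose arrays from -0.19 to 0.034 (median -0.074) and controls from -0.18 to 0.15 (median 0.021). The Cacna1g difference ran from -0.033 without control array 3 to -0.098 without control array 2, with -0.039 without sucrose array 1. It was -0.034 adjusted for the spike-in level, -0.037 with array weights and -0.027 without sucrose array 1 and control array 5.

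Cacna1i encodes a T-type pore that is largely neuronal. Its differences were -0.012 ± 0.059 for 1369211_at and -0.015 ± 0.062 for 1370641_s_at, with adjusted p of 0.980 and 0.977. On the former, sucrose array 6 was highest at 0.23 and the other sucrose arrays ran from -0.14 to -0.00022. On the latter, sucrose array 1 was highest of its group at 0.14, and controls ran from -0.22 to 0.22, the widest control range of the 18.

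Probe sets of the same gene followed each other for Cacna1b and Cacna1c, and not clearly for the other genes with several. Over the 12 arrays 17 pairs of probe sets of a gene were compared, and a further pair, Cacna1h 1368398_at with Cacna1g, was added after its annotation was seen, and all 18 were adjusted together. Within a gene 9 pairs had r above 0 and 8 below. For Cacna1b, Pearson r was 0.79 (permutation p = 0.00222, adjusted p = 0.0400) and Spearman rho 0.77 (p = 0.00522, adjusted p = 0.0470). Without sucrose arrays 1 and 2, the farthest from the median of 1370444_at alone, r was 0.71. For Cacna1c, r was 0.73 (permutation p = 0.00673, adjusted p = 0.0590) and rho 0.85 (p = 0.00095, adjusted p = 0.0171), and r was 0.78 without control arrays 3 and 5. These correlations were taken over both groups, and they share arrays and normalization.

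For Cacna1a 6 of 10 pairs had r below 0. The lowest was between 1386939_a_at and 1395062_at, with r of -0.71 (permutation p = 0.00983, adjusted p = 0.0590) and rho of -0.60 (p = 0.0439, adjusted p = 0.264). Without sucrose array 1 and control array 3, the farthest from the median of 1386939_a_at alone, r was -0.28. Leaving out extremes chosen in this way can itself lower r. The 3 Cacna1d pairs had r of -0.12, 0.043 and -0.11, and the Cacna1i pair 0.25, with an adjusted p of 0.949 for each.

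**Figure D3:**
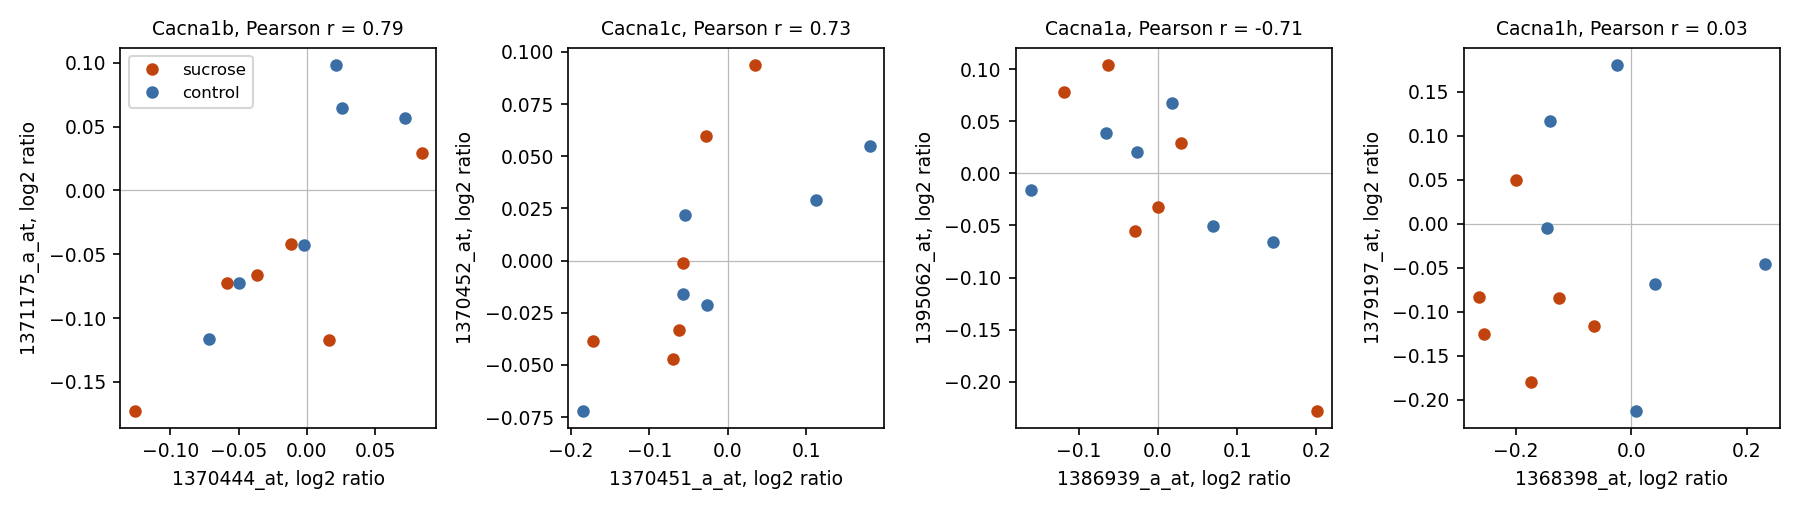
Log2 ratios of probe sets of the same gene set against each other on the 12 arrays (orange sucrose, blue control), for Cacna1b, Cacna1c, a pair of Cacna1a and Cacna1h, each panel with its own axes. The points rise together for Cacna1b (r = 0.79) and Cacna1c (r = 0.73), fall for Cacna1a (r = -0.71, with sucrose array 1 at the lower right) and show no trend for Cacna1h (r = 0.025).

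Single arrays carried many of the extremes. Sucrose array 1 was the lowest or highest of the 12 arrays for 7 of the 18 probe sets (38.9%, against 23.5% of all probe sets), and control array 3 for 6 (33.3% against 23.3%). Sucrose array 2 and control array 1 were so for 5 each (27.8%, against 15.7% and 16.4%). Control array 5 was so for 3 (16.7% against 27.8%). Sucrose array 1 also had the lowest 3-prime minus 5-prime difference of the RNA integrity probe sets, at -0.14, and the highest mean of 4 choroid plexus markers, at 1.72 against -0.34 to 0.45 in the other arrays. Means of 7 striatal and central amygdala markers ran from -0.34 to 0.13 in sucrose and from -0.10 to 0.12 in control arrays, the lowest in sucrose array 1. Those of 6 oligodendrocyte markers ran from -0.19 to 0.46 and from -0.11 to 0.098, those of 6 astrocyte markers from 0.050 to 0.33 and from -0.20 to 0.071. The means of 6 pallial excitatory neuron markers ran from -0.090 to 0.12 and from -0.091 to 0.096, and of 7 GABAergic neuron markers from -0.017 to 0.016 and from -0.047 to 0.069. The astrocyte mean of 5 of 6 sucrose arrays lay above every control. How often means of other gene sets do so was not examined. Aqp4 differed by 0.27 ± 0.12, with 2 of its 3 probe sets higher, and Slc1a2 by 0.26 ± 0.095. Gfap differed by 0.11 ± 0.065, Slc1a3 by 0.11 ± 0.072, Gja1 by 0.097 ± 0.076 and Aldh1l1 by -0.027 ± 0.051. The mean of 4 oligodendrocyte precursor markers also lay above every control in 5 of 6 sucrose arrays. It ran from -0.0024 to 0.13 in sucrose and from -0.034 to 0.032 in control arrays. Vcan, a proteoglycan gene with the lowest p of that list, differed by 0.31 ± 0.057, with an adjusted p of 0.231. Its groups did not overlap, as for 68 of all 14217 genes, and 3 of its 5 probe sets were higher. The other genes of the list differed less, with Pdgfra at 0.036 ± 0.029, Olig1 at 0.029 ± 0.053 and Cspg4 at -0.020 ± 0.046. The 4 other lists, of thalamic, microglia, endothelial and blood cell markers, had means between -0.13 and 0.13 on every array. In these 11 lists 0 genes passed the test. Their part in the values of the channel genes was not tested, and 0 alpha-1 probe sets were called without any single array.

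For each subunit the genes of most similar pattern were looked up among 20821 to 20825 probe sets of other genes by Pearson r over the 12 arrays, taking for each subunit the probe set that varied most. They were Luc7l3 (0.95) and Smc3 (0.93) for Cacna1a, Map7d1 (0.94) and Zfp870 (0.93) for Cacna1b, and Cab39 (0.94) and Gap43 (0.90) for Cacna1c. For Cacna1d they were Ubap2 (0.89) and Unc45a (0.89), for Cacna1e Fzd5 (0.90) and Col4a6 (0.86), and for Cacna1g Psme3ip1 (0.90) and Ttyh3 (0.90). For Cacna1h 1368398_at they were Ythdc1 (0.88) and Mylk3 (0.85), and for Cacna1i Crebzf (0.94) and Map4k2 (0.93). Gap43 is a growth cone protein gene and Ythdc1 encodes a reader of RNA methylation. These are the highest of very many correlations over few arrays and are given as a description. The named pairs for Cacna1a had Spearman rho of 0.62 and 0.82, and the differences of all 16 genes had an adjusted p of at least 0.561.

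The genes that work with the pore were counted by list, each gene by its probe set of highest variance, and 0 of 55 measured genes of the 10 lists passed the test, as did 0% of all genes. At an unadjusted p under 0.05 there were 8 higher and 1 lower, 16.4% of the 55, against 8.3% of all 14217 genes, 5.11% higher and 3.19% lower. The median difference of the 55 was 0.0092 against -0.0068 for all genes. These lists were chosen with earlier results of these data known, so the share and the median are given only as a description. Sucrose array 1 had the highest mean of the sensor and adaptor, presynaptic and pump lists, at 0.24, 0.18 and 0.14.

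Among auxiliary subunits, the cytoplasmic beta subunits carry the pore to the membrane and shape its gating. Of 4 measured beta genes 3 were higher and 1 lower, with a median of 0.054, or 0.032 without control array 1. Cacnb3 differed by 0.093 ± 0.035, from 0.015 to 0.15 in sucrose against -0.068 to 0.061 in control arrays, and had an unadjusted p of 0.0186 and an adjusted p of 0.568. Cacnb4 differed by 0.11 ± 0.060 and Cacnb1 by -0.015 ± 0.040. Alpha-2-delta subunits help traffic the channels. Of 4 such genes 2 were measured, Cacna2d3 (-0.066 ± 0.036) and Cacna2d1 (0.068 ± 0.065), both with an adjusted p of at least 0.725. Of 8 gamma genes, several of which escort AMPA receptors rather than calcium channels, 7 were lower and 1 higher, with 0 at an unadjusted p under 0.05. Cacng1 differed by -0.093 ± 0.059, Cacng4 by 0.056 ± 0.063 and Cacng6 by -0.061 ± 0.070.

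The RGK GTPases, which inhibit high-voltage-activated channels, had 2 genes higher and 2 lower. Gem differed by -0.060 ± 0.071, Rem2 by -0.036 ± 0.096, with 1 of its 2 probe sets lower, and Rem1 by 0.012 ± 0.050. Of 6 measured calcium sensors and adaptors 4 were higher, with a median of 0.078. That median was 0.040 with all probe sets of a gene averaged, and 0.046 without sucrose array 1 and likewise without control array 1. Cabp1, a calmodulin-like protein that binds L- and P/Q-type channels, differed by 0.22 ± 0.059, from 0.16 to 0.31 in sucrose and from -0.14 to 0.25 in control arrays, with an adjusted p of 0.417, and 1 of its 2 probe sets was higher. Akap5, the anchor that holds kinase A and calcineurin at L-type channels, differed by 0.24 ± 0.10 (adjusted p = 0.612) and Stac by 0.096 ± 0.052.

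Of 9 measured presynaptic partners 7 were higher and 2 lower, with 3 higher and 1 lower at an unadjusted p under 0.05. Bsn, the active zone scaffold bassoon, differed by 0.22 ± 0.079 (adjusted p = 0.550). Stx1a, the syntaxin that binds N- and P/Q-type channels, differed by -0.15 ± 0.057 (adjusted p = 0.586), and Rims2, which tethers channels to the active zone, by 0.078 ± 0.035 (adjusted p = 0.640). The third higher gene was Cask, a membrane-associated scaffold, which differed by 0.213 ± 0.098 and was named after its value was seen.

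Of 9 pumps and exchangers 6 were higher and 3 lower. Atp2b2, a plasma membrane pump that extrudes calcium, differed by 0.33 ± 0.076, from 0.210 to 0.562 in sucrose and from -0.128 to 0.206 in control arrays. Each sucrose array lay above every control array and both probe sets were higher, but the adjusted p was 0.376. Of the 55 partner genes 1 had groups that did not overlap, against 68 of all 14217 genes. Atp2b4 differed by 0.11 ± 0.076 and the exchanger gene Slc8a2 by -0.087 ± 0.064. Of 6 release channels of the endoplasmic reticulum 3 were higher. Ryr2 differed by 0.29 ± 0.097, with an adjusted p of 0.510 and both probe sets higher. Itpr2 differed by -0.044 ± 0.047, with 1 of its 2 probe sets lower, and Ryr1 by -0.075 ± 0.091. Atp2b2 and Ryr2 were the genes of these lists in the authors' deposited table, with mean ratios of 1.251 and 1.208. That table was selected on these arrays and is no independent evidence of direction.

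Of 3 measured calcium-activated potassium channel genes 2 were higher, Kcnma1 by 0.21 ± 0.10, with 2 of its 3 probe sets higher, and Kcnn3 by 0.11 ± 0.056. Kcnn1 differed by -0.033 ± 0.048. Of 4 calcium buffers 2 were higher and 2 lower, with Pvalb at 0.058 ± 0.036, Calb1 at -0.068 ± 0.050 and Calb2 at -0.040 ± 0.049. All of these had an adjusted p of at least 0.685.

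**Figure D4:**
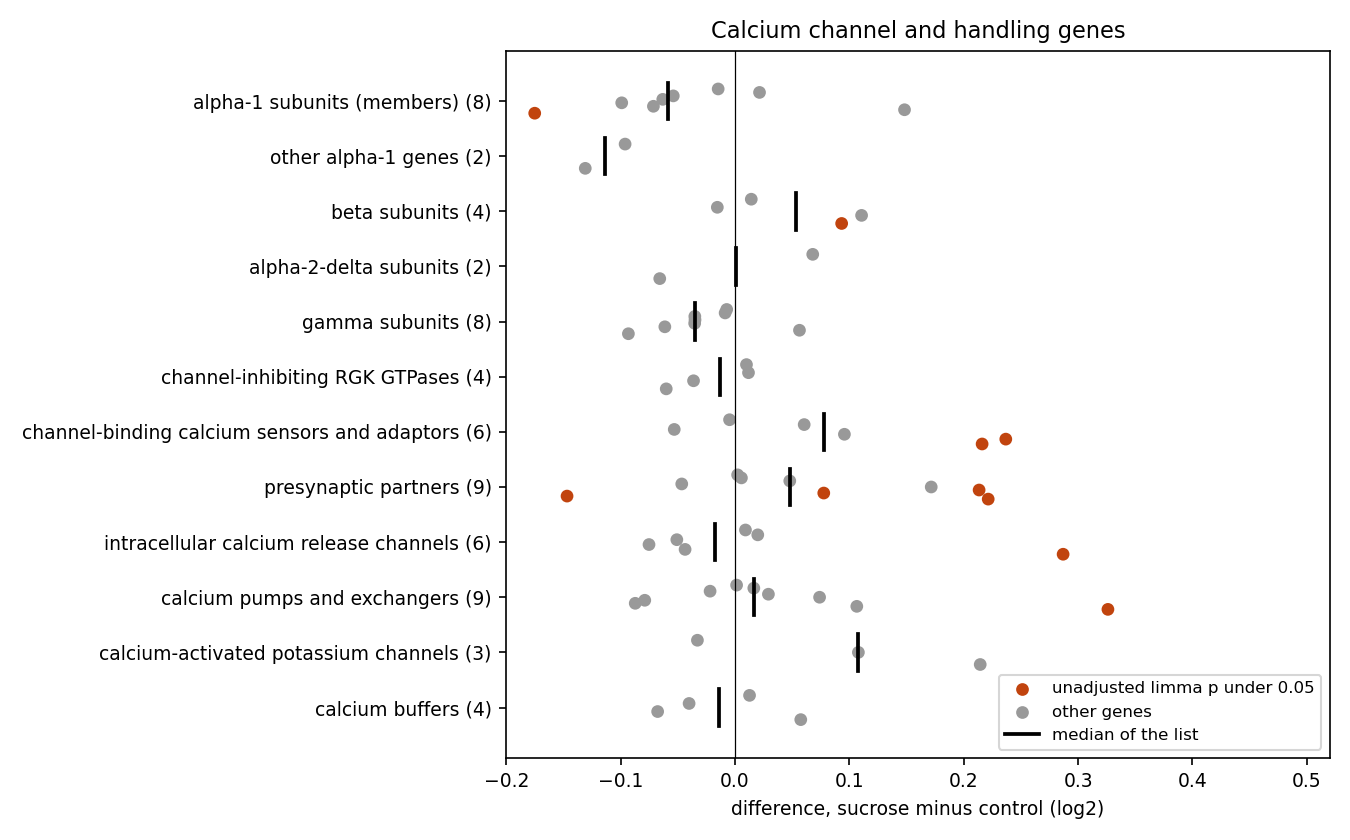
Difference, sucrose minus control on the log2 scale, of each measured gene (points, 1 probe set per gene) in the alpha-1 family, the muscle and retina alpha-1 genes and the 10 lists of partner genes, with the number measured in brackets; orange marks an unadjusted limma p under 0.05 and black bars are list medians. The alpha-1 median is -0.059, 6 of its 8 points lie below 0, and the points farthest to the right are Atp2b2 (0.33) and Ryr2 (0.29).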

How the data were processed

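RNA of 12 pools, 6 per group, was hybridised to Affymetrix rat arrays. RMA, with no version, is named in the submitters' processing notes; no further scaling step is named there. The deposited values are linear ratios: the mean of the 6 control arrays was 1 for each probe set, within 2.0e-07. Per the file headers, the authors' deposited table of 145 probe sets gives p-values and mean ratios; the test behind its p-values is not named.

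From the 31099 probe sets 57 control probe sets were left out. For the other 31042, log2 ratios entered a two-sided limma test (version 3.58.1, R 4.3.3; lmFit, then eBayes without variance trend) that held no term but group. Benjamini-Hochberg adjustment ran over all 31042, with a threshold of 0.05. Single probe sets also had an exact permutation test over 924 assignments, whose smallest p is 0.00216. Correlations used 100000 permutations. The fit was tested on simulated data with independent noise, where recovery was required only for changes larger than any alpha-1 difference found here. That test does not show that differences of the size seen here would be found. The choice to leave out the arrays of highest and lowest spike-in level together was made after seeing the data. No 2 arrays held identical values. The labels name separate pools of rats, so p-values measure the spread between pools.

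The subunit genes, the partner and marker lists and the rule for named genes (every subunit probe set, up to 3 genes of lowest p per partner list, the 2 most similar genes per subunit, the marker lists) were chosen with earlier results of these data known. Alternatives were a replicate block, normalization, variance prior, array weights, linear scale, spike-in and RNA integrity covariates, and leaving out each array.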

Additional observations from a re-analysis of the deposited data

Results flagged for a closer look

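Of 36 groups of 6 values examined for the alpha-1 probe sets, 1 had an array far from the others by Dixon's criterion at the 95% level, where chance gives about 1.8. Cacna1i 1370641_s_at was 0.14 in sucrose array 1, while the other sucrose arrays ran from -0.11 to -0.021. Without sucrose array 1 the difference of this probe set was -0.048.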

How the results depend on the processing

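The 18 alpha-1 probe sets were refitted under 22 alternatives, 12 of which leave out 1 array each; 0 were called under any of them, and the lowest adjusted p was 0.487, for Cacna1h 1368398_at without control array 2. The exact permutation test, adjusted over all probe sets, called 0 as well, with a lowest adjusted p of 0.611 among the 18. Over all probe sets 0 were called, and 0 to 1 when single arrays were left out, the 1 arising without sucrose array 3 and again without sucrose array 5. With the replicate number as a block, 0 probe sets were called over all, among the subunits and in the partner lists. Deviations of same-numbered arrays from their group means correlated from -0.15 to 0.19, above 0.1 in 1 of 6 pairs. Of the 6 sucrose arrays 1 correlated best with the control of its number. The labels do not say whether arrays of the same number share a batch, and these correlations cannot settle it. Of the 18 differences 10 kept their sign throughout, and the medians of the partner lists moved by less than the spread between arrays in all 160 recomputations. That spread is wide beside these medians: the presynaptic median of 0.048 was 0.019 without sucrose array 1, and the alpha-2-delta, RGK, release channel, pump and buffer medians changed sign without some single array.

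The signs that turned belonged to differences near 0. Cacna1a 1386939_a_at was -0.0072 after a further quantile normalization, -0.015 with array weights, -0.017 with the spike-in covariate, -0.0076 with the RNA integrity covariate and -0.065 without the arrays of highest and lowest spike-in level, and ran from -0.033 to 0.036 without single arrays. Cacna1a 1395062_at was 0.0033 with the RNA integrity covariate and 0.022 without those 2 arrays, and ran from -0.041 to 0.025 without single arrays. Cacna1b 1370444_at was 0.0048 without those 2 arrays. Cacna1i 1369211_at was 0.0021 after quantile normalization, 0.0052 with array weights, 0.019 with the spike-in covariate and 0.0069 without those 2 arrays, and ran from -0.061 to 0.013 without single arrays. Cacna1i 1370641_s_at was 0.00099 with array weights and ran from -0.058 to 0.031 without single arrays. Without single arrays, Cacna1c 1370452_at ran from -0.012 to 0.017, Cacna1d 1370637_at from -0.059 to 0.0049 and Cacna1e 1370586_a_at from -0.015 to 0.049. Among those that kept their sign, Cacna1a 1367822_at ran from 0.023 to 0.083, Cacna1a 1398459_at from -0.058 to -0.018 and Cacna1d 1370640_a_at from -0.085 to -0.029 without single arrays, and Cacna1b 1371175_a_at was -0.042 with the spike-in covariate. The cause was not tested. Signal over background is not kept by the ratios, so its effect on precision is unknown here.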
